A study of Sus scrofa with 35 samples.

Results

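Gene expression in whole blood was compared between Creole (CR) and Large White (LW) pigs kept in thermoneutral (TN) conditions at 24 °C. The 11 pigs were chosen by their labels alone, as the 5 CR and the 6 LW pigs of the TN groups, out of 35 pigs in the whole experiment. The CR breed is local to the Caribbean, whereas LW is a commercial breed of European origin. All pigs were growing castrated males, brought to the climatic room at 11 weeks of age, and each pig gave 1 array. Blood was collected when the pigs were bled at slaughter, into tubes that stabilise RNA. The TN pigs had received no heat and were slaughtered before the room was warmed. Other pigs of the same breeds were kept under heat stress (HS, 30 °C for 5 d according to the labels, with a different temperature in the protocol text), namely 6 CR and 6 LW pigs, and 6 F1 pigs of the cross between the breeds were kept in TN conditions. These groups are described below only beside the breed difference in TN conditions. All 35 pigs, with 6 F1 pigs under HS among them, entered the fit of that difference. The spread behind its standard errors and p-values was thus estimated from all groups, not from the 11 pigs alone. Each breed came from a few litters and was penned apart from the other breed, and the labels hold no litter or pen, so that breed cannot be told apart from litter and pen in these values.

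Blood RNA comes from a mixture of cells. Reticulocytes, the youngest red cells, carry the messages of hemoglobin, platelets carry messages left by megakaryocytes, and neutrophils, monocytes, T cells, natural killer (NK) cells and B cells add their own. A higher or lower level of a message in whole blood can come with more cells of a type or with more message per cell, and the 2 cannot be told apart in these data. Probes of 60 bases were used on the array, and each value is the deposited log2 intensity of a probe after quantile normalization, on which 1 unit is a 2-fold change. A probe reads only its own 60 bases, so probes of the same gene are given side by side.

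Markers of the cell types of blood were present in both groups. Between 59.8% and 68.0% of probes gave a signal well above background on the 11 arrays, and the 75th percentile of the processed intensity was 146 to 329. Values of 2 arrays had Pearson correlations across probes of 0.955 to 0.986 among CR pigs, 0.962 to 0.990 among LW pigs, and 0.950 to 0.988 between the breeds. The arrays lay on 5 slides, of which 4 held both breeds. None of 14 measures of the arrays, which included the mean level of markers for 10 kinds of blood cell, differed between the breeds after adjustment (two-sided exact permutation tests over all 462 splits, lowest adjusted p = 0.515).

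A small number of genes differed between the breeds. Of 39072 probes, 33 (0.0845%) passed the threshold of an adjusted p-value of 0.05 in limma, with 12 (0.0307%) higher and 21 (0.0537%) lower in CR pigs. They held 29 distinct sequences, 18 of the 33 had a gene name, and those named 13 genes. Probes of SELENOF, VMO1, TSPAN7 and TSPAN6 were higher in CR pigs, and probes of KIT, RGS2, OAZ3, ESD, FSCN1, WWP1, LOC100335347, LOC100296206 and LOC100524282 were lower. The median size of the 33 log2 differences was 1.40, with a range of 0.64 to 3.64, against 0.092 over all probes. A difference of 2-fold or more was found at 24 of the 33, and at 185 (0.473%) of all probes. In 28 of the 33 the CR and LW pigs did not overlap, as in 0.553% of all probes. The threshold fell between LOC100296206 (adjusted p = 0.0486), which was just inside, and a probe of LOC100525845, described as 60S ribosomal protein L32-like (log2 difference −1.43, adjusted p = 0.0645), which was just outside with PLVAP (−0.98, adjusted p = 0.0645).

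**Figure D1:**
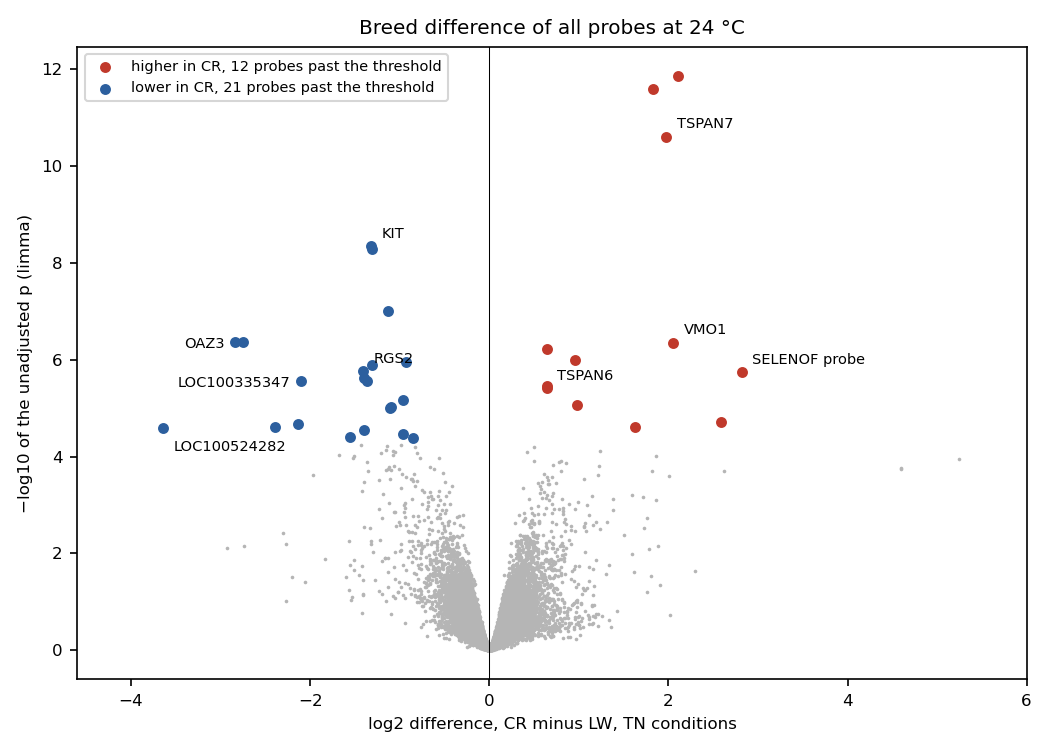
Log2 difference between CR and LW pigs in TN conditions (x axis, CR minus LW) against −log10 of the unadjusted p-value in limma (y axis) for 39072 probes. Coloured points are the 12 probes that were higher and the 21 that were lower in CR pigs past an adjusted p-value of 0.05, which stand at differences of 0.64 or more in size.

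When the probes of a gene were averaged, 7 of 10878 genes (0.0644%) passed, and these were VMO1, TSPAN7 and TSPAN6, higher in CR pigs, and KIT, RGS2, OAZ3 and LOC100335347, lower in CR pigs. An unadjusted p-value under 0.05 was found for 410 genes (3.77%). The other 6 named genes passed by 1 probe only and not by the mean of their probes, except LOC100296206, which had a single probe and an adjusted p of 0.0524 among genes.

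The sequences of 6 probes are given first, because several results turn on which bases a probe reads. They were taken from the scanner files and are written 5′ to 3′. Capitals mark the longest run, of 32 bases, that the probe of the constant region of immunoglobulin gamma 1b (IgG1b) shares with another probe. That other probe is of another IgG heavy chain, LOC396781, and further bases outside the run are also the same in both.
VMO1: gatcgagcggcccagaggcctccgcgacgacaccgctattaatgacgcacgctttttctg
OAZ3: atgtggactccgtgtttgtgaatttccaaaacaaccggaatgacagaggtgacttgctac
ESD: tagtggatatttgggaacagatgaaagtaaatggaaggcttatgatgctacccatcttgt
IgG1b: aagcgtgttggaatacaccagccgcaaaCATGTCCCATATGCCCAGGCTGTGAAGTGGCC
LOC396781: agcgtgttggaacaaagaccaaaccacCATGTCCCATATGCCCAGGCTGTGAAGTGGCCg
SELENOF, the 21 bases shared by the probe that differed and one of the 5 that did not: ccattgatcagtctcttaccg
The OAZ3 sequence stands on the array under 2 probe names, and both passed.

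TSPAN7 and TSPAN6 encode tetraspanins, proteins that cross the membrane and gather other membrane proteins into patches. TSPAN7 gave the smallest p-values of the comparison. The TSPAN7 probe that differed is LOC100526026 in the files, a locus that a RefSeq gene table names TSPAN7. It had log2 levels of 8.30, 7.11, 7.82, 7.91 and 7.36 in the CR pigs. Its levels in LW pigs were 5.32 at the lowest, 5.65 at the median and 6.42 at the highest. Every CR pig was above every LW pig. The log2 difference was 1.98 ± 0.20 (SE), or 3.94-fold, with an adjusted p of 3.23e-07, and it lay between 1.53 and 2.95 under other processing. A probe with the identical 60 bases, named only by a sequence record, gave 2.11 ± 0.19, and a probe of an ovary clone that shared 57 of the bases gave 1.82 ± 0.17 (adjusted p = 4.94e-08 for both). These 3 probes thus read 1 stretch of sequence, which holds the run gtctcgcatgccaacaagaatgcattgata, and count as 1 observation. The other TSPAN7 probe, the only one that the files name so, read 6.14 to 6.88 in CR pigs and 6.13 to 6.99 in LW pigs, a log2 difference of −0.02 (95% interval −0.40 to 0.36). The TSPAN7 gene value, which averages both, differed by 0.98 and so describes neither of them. A further probe of the same ovary clone, which shares no run of 16 bases with those 3, was also higher in CR pigs, by 0.64 ± 0.10 (adjusted p = 0.00232). It was chosen after its value was seen.

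TSPAN6 had 1 probe. Its levels in CR pigs were 8.35, 8.18, 7.98, 8.00 and 8.10. In LW pigs they ran from 7.35 through a median of 7.46 to 7.66. The ranges did not overlap and the spread within each breed was small. The log2 difference was 0.64 ± 0.12 (adjusted p = 0.00744). Under HS the same contrast was 0.19 (adjusted p = 0.588), and the unadjusted p of the interaction between breed and climate was 0.0085, which did not pass after adjustment over all probes.

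VMO1 encodes the vitelline membrane outer layer 1 homolog, a secreted protein. CR pigs had log2 levels of 7.92, 8.00, 7.99, 7.53 and 6.98 at its single probe. The LW pigs lay between 5.35 and 5.99, with a median of 5.52. All CR pigs were higher than all LW pigs, by about a log2 unit at the closest. The difference was 2.06 ± 0.33, or 4.16-fold, with an adjusted p of 0.00193. F1 pigs had a mean of 6.46 ± 0.69 (SD, n = 6) between those of the parent breeds. VMO1 passed under every alternative of analysis that was run, with a log2 difference of 1.59 to 3.16.

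SELENOF encodes a selenoprotein of the endoplasmic reticulum. The array had 6 of its probes, and 1 of them differed. At that probe the CR pigs had log2 levels of 7.85, 7.29, 7.23, 8.36 and 8.23. The LW pigs had 4.82 at the lowest, 4.96 at the median and 5.15 at the highest, and the probe was not well above background in any of them. Among F1 pigs the values were 7.01, 7.11, 5.32, 5.01, 5.03 and 6.91, so that 3 pigs lay near CR and 3 near LW. The level was at least 6.27-fold higher in CR than in LW pigs, as measured against the lowest signal well above background, with a fitted log2 difference of 2.82 ± 0.49 (adjusted p = 0.00477) that was 2.08 to 5.84 under other processing. The other 5 SELENOF probes differed by −0.12 to 0.14, and none passed. One of them shared a run of 21 bases with the probe that differed (log2 difference −0.05) and another shared a run of 20 (−0.02). The mean over the SELENOF probes had an adjusted p of 0.566.

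**Figure D2:**
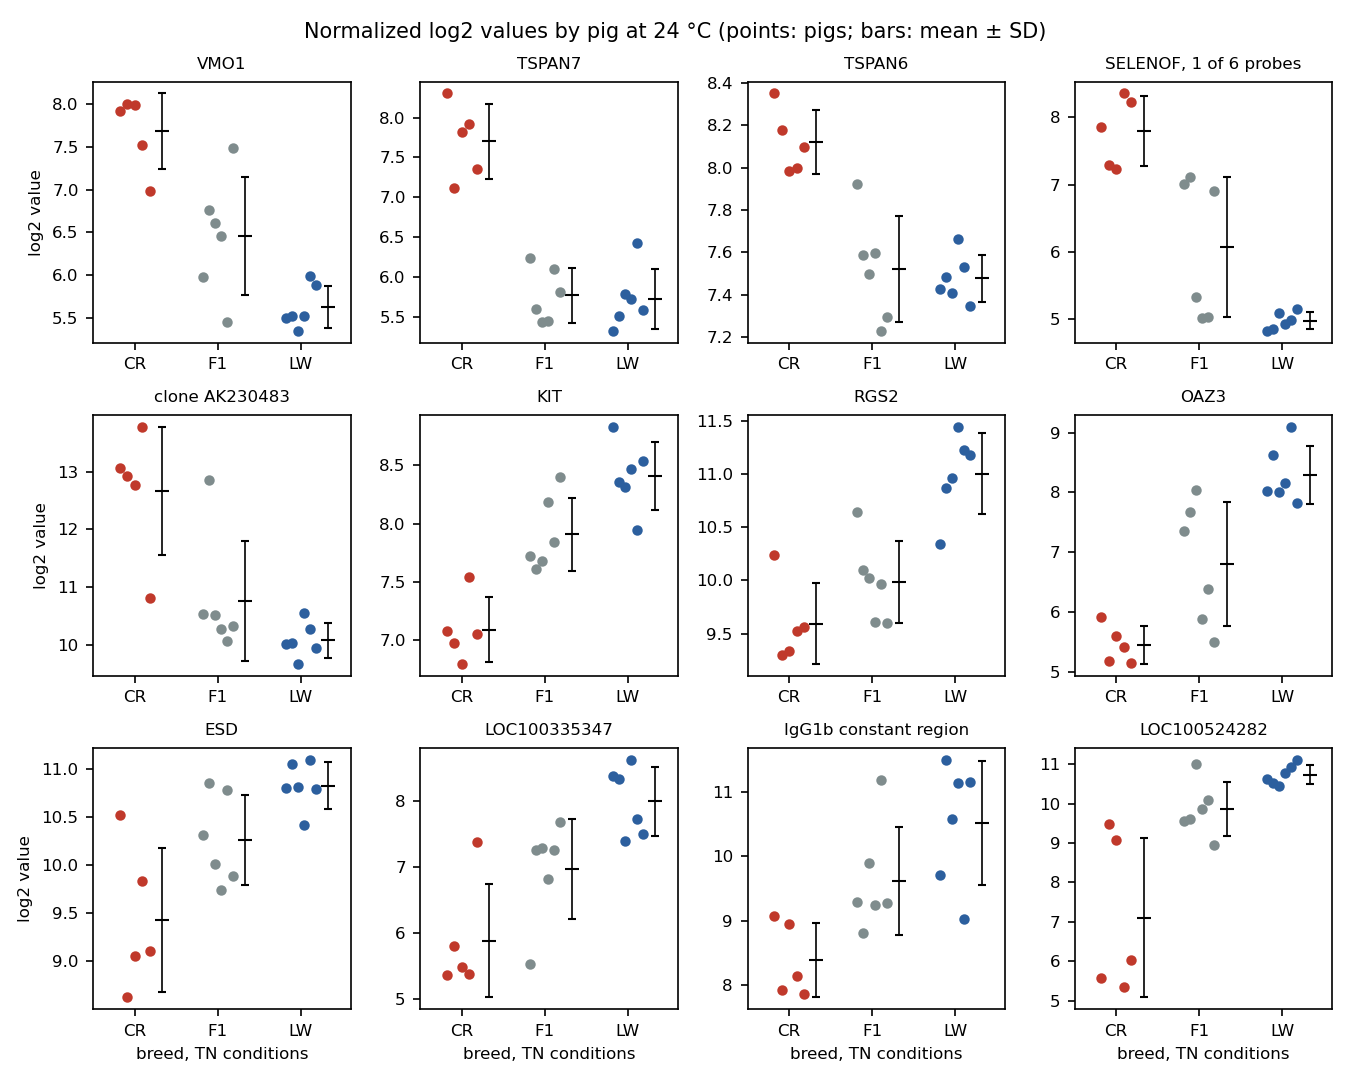
Log2 levels in TN conditions of 12 probes that are described in the text, with a point for each CR (n = 5), F1 (n = 6) and LW (n = 6) pig and bars for mean ± SD. At VMO1, TSPAN7, TSPAN6, KIT and OAZ3 all CR pigs lie on one side of all LW pigs, while single CR pigs lie apart at LOC100335347 and at the clone AK230483.

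KIT encodes the receptor tyrosine kinase for stem cell factor, which blood progenitors and mast cells carry. Duplications and splice changes of KIT are known for the dominant white coat of white European pig breeds, which is given here as background. All 5 KIT probes were lower in CR pigs and 3 passed. The probe with the largest difference read 7.08, 6.98, 6.80, 7.54 and 7.06 in the CR pigs. In LW pigs its log2 levels were 7.95 at the lowest, 8.41 at the median and 8.83 at the highest. No value of one breed reached the range of the other. The difference was −1.32 ± 0.17, and a probe with the identical sequence gave −1.31 ± 0.17 (adjusted p = 4.04e-05 for both). A KIT probe with another sequence differed by −0.93 ± 0.16 (adjusted p = 0.00364). The remaining KIT probes differed by −0.31 and −0.34 and did not pass. They were dim, and at most 1 of the 5 CR arrays and 4 of the 6 LW arrays read them well above background. Averaged over its probes, KIT was lower in CR pigs by 0.84 ± 0.13 on the log2 scale (adjusted p = 0.000942). MS4A2 and HDC, which mark basophils and mast cells, were at 0.24 ± 0.14 and 0.29 ± 0.20 and did not pass.

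RGS2 encodes a regulator of G-protein signalling that shortens the signal of activated receptors. Of its 4 probes, 3 passed, 2 of them with the same sequence. One of these 2 had log2 levels of 10.24, 9.30, 9.34, 9.53 and 9.56 in CR pigs. In LW pigs it ran from 10.34 through 11.07 to 11.44. CR replicate 1 was the highest of its breed and LW replicate 1 the lowest of its breed, and between them the ranges came within 0.1 of each other. At the other probe of that sequence these 2 pigs crossed, with 10.35 in CR replicate 1 and 10.30 in LW replicate 1. The log2 differences of the 3 probes were −1.37, −1.40 and −1.41, with SEs of 0.24 to 0.25 and adjusted p-values of 0.00474 to 0.00604. The RGS2 probe that did not pass was also lower (−0.81 ± 0.18). On the slide that held both of those pigs the differences were −0.46 to −0.57, against −1.43 to −1.88 on the other 3 slides with both breeds. RGS2 as the mean of its probes was lower by 1.24 ± 0.21 on the log2 scale (adjusted p = 0.00330).

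OAZ3 encodes ornithine decarboxylase antizyme 3, a member of the antizyme family that holds polyamine synthesis down and is known mainly from the testis. These pigs were castrated and the values are from blood. At one name of the OAZ3 sequence printed above, CR pigs had log2 levels of 5.91, 5.18, 5.59, 5.41 and 5.14. LW pigs had 7.82 at the lowest, 8.09 at the median and 9.10 at the highest. The gap between the breeds was wider than the range within either of them. The log2 difference was −2.84 ± 0.45, or 7.16-fold, and at the other name −2.75 ± 0.44 (adjusted p = 0.00193 for both). Of the 5 CR arrays, 3 read the probe well above background under one name and 4 under the other, and the first difference ranged from −2.21 to −4.07 over the alternatives of background correction and scaling. The OAZ3 probe with another sequence read 6.34 to 7.09 in CR and 7.19 to 7.72 in LW pigs, a difference of −0.85 ± 0.21 that did not pass. The levels of the third probe also did not overlap between the breeds. Averaged over its probes, OAZ3 was lower in CR pigs by 2.15 ± 0.35 (adjusted p = 0.00196), and it was the only one of 19 measured polyamine genes to pass. ARG2, an arginase that makes ornithine, differed by 0.22 ± 0.13, and SMOX, spermine oxidase, by −0.51 ± 0.35. The median of the polyamine list was −0.002 against −0.003 for all genes.

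ESD encodes esterase D, which splits S-formylglutathione. Its 11 probes, each of a different sequence, were all lower in CR pigs, by 0.97 to 1.40 on the log2 scale. All 11 had an unadjusted p under 0.05 and 1 passed after adjustment. That probe read 10.51, 8.63, 9.05, 9.83 and 9.10 in CR pigs. In LW pigs it read 10.41 at the lowest, 10.80 at the median and 11.09 at the highest. CR replicate 1 lay among the LW pigs and the other 4 CR pigs lay below all of them. The difference was −1.40 ± 0.29 (adjusted p = 0.0367), but the adjusted p went as high as 0.203 when a pig was left out, and the call ended without any of 8 pigs (LW replicates 1, 2, 3, 5 and 6 and CR replicates 2, 3 and 5). The mean over the ESD probes was −1.14 ± 0.27 and did not pass (adjusted p = 0.113).

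**Figure D3:**
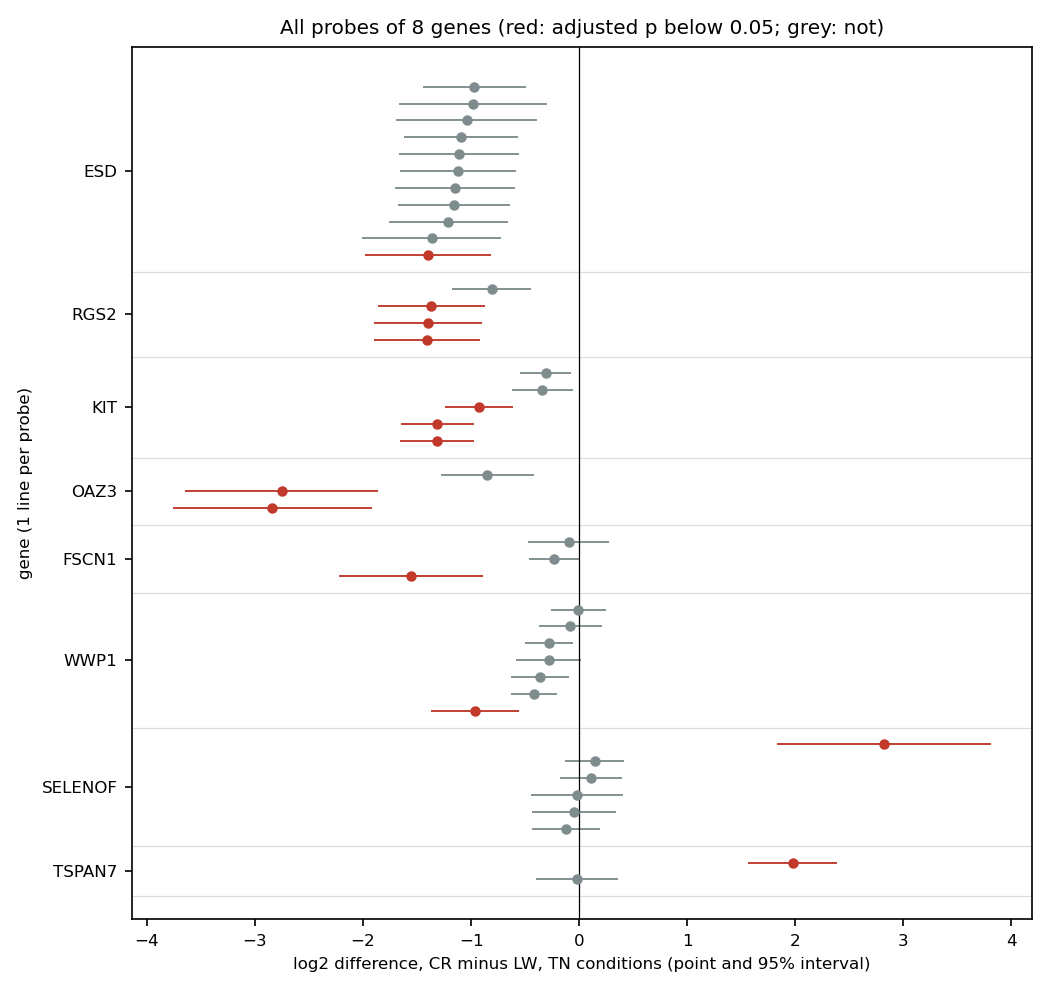
Log2 difference between CR and LW pigs in TN conditions with its 95% interval for each probe of 8 named genes, with red where the adjusted p-value was under 0.05. The 11 ESD probes lie together between −0.97 and −1.40, while SELENOF has a single probe at 2.82 and 5 near 0.

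FSCN1 encodes fascin, which bundles actin filaments, and WWP1 encodes an E3 ubiquitin ligase. Each had 1 probe past the threshold. The FSCN1 probe read 9.98, 8.25, 8.08, 9.43 and 9.07 in CR pigs and 10.04 to 11.23 in LW pigs, with a median of 10.52. The breeds did not overlap but nearly met at CR replicate 1. Its difference was −1.55 ± 0.33 (adjusted p = 0.0473), and the other FSCN1 probes gave −0.10 and −0.23. Leaving out any of 9 pigs, all but CR replicate 1 and LW replicate 5, ended the FSCN1 call (highest adjusted p 0.223). The WWP1 probe read 6.76, 6.92, 6.89, 7.17 and 7.52 in CR pigs, and 7.37, 8.09 and 8.54 as the lowest, median and highest of LW pigs. The ranges overlapped by 1 pig of each breed. Its difference was −0.96 ± 0.20 (adjusted p = 0.0437), the other 6 WWP1 probes were also lower, by 0.01 to 0.42, 3 of them at an unadjusted p under 0.05, and the call ended without any of 8 pigs (CR replicates 1 to 4 and LW replicates 1, 2, 5 and 6, with the adjusted p at most 0.156).

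The IgG1b probe, whose sequence is printed above, was lower in CR pigs. It had log2 levels of 9.07, 7.92, 8.94, 8.14 and 7.86 in CR pigs, and 9.02, 10.87 and 11.50 as the lowest, median and highest of LW pigs. Only the lowest LW pig, replicate 5, lay within the CR range. The difference was −2.14 ± 0.43, or 4.40-fold (adjusted p = 0.0326). The LOC396781 probe shares a run of 32 bases with it, and further bases outside that run. It read 10.49 to 11.54 in CR and 10.24 to 11.31 in LW pigs and differed by 0.02 (95% interval −0.60 to 0.64). Among immunoglobulin and plasma cell genes, 7 were measured and none passed, with a median of 0.04. IGJ, the joining chain, differed by 0.37 ± 0.32 and IGHA, the heavy chain of IgA, by −0.27 ± 0.36. The IgG1b call ended without any of 7 pigs (CR replicates 2, 4 and 5 and LW replicates 2, 3, 4 and 6), with an adjusted p of 0.130 at most. Immunoglobulin constant regions belong to a family of near-identical genes, so the signal of these probes may not belong to 1 gene.

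LOC100524282 is described as 60S ribosomal protein L37a-like, and its probe had the largest difference past the threshold. CR pigs fell into separate levels, with 5.56, 5.35 and 6.02 in replicates 1, 4 and 5 and 9.49 and 9.08 in replicates 2 and 3. LW pigs were close together, from 10.46 through 10.71 to 11.11. No CR pig reached the LW range. The difference was −3.64 ± 0.74, or 12.4-fold (adjusted p = 0.0347). A second probe of the gene differed by −0.14. The unnamed probe A_72_P514819, which shares a run of 20 bases with the passing probe, differed by 0.08. A_72_P634961, which shares a run of 16, differed by −0.55. Neither passed, and their CR means were 14.06 and 14.34. Whether these probes read separate genes was not tested. In the list of cytosolic ribosomal proteins, 76 were measured, none passed, and the median was −0.002. RPS25 at 0.84 ± 0.31 and RPS13 at 0.35 ± 0.13 had the smallest p-values of that list. The call of LOC100524282 ended without any of 9 pigs, all but CR replicates 2 and 3, with an adjusted p of at most 0.149.

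LOC100335347, which the files name only by a record number, was lower in CR pigs. Its log2 levels in CR pigs were 5.37, 5.80, 5.50, 5.38 and 7.38. In LW pigs they were 7.39 at the lowest, 8.03 at the median and 8.62 at the highest. CR replicate 5 stood far above the other 4 and came within 0.02 of the lowest LW pig. The difference was −2.11 ± 0.37 (adjusted p = 0.00604), and −2.48 without CR replicate 5, with −1.68 to −3.32 over all alternatives. In the limma fit over the 11 pigs alone this probe did not pass (adjusted p = 0.0658). LOC100296206 differed by −0.85 ± 0.18, with 11.84, 11.38, 11.37, 11.03 and 11.58 in CR pigs and 12.06 to 12.49 in LW pigs, with a median of 12.32. The 2 ranges lay close but apart. Its probe shares 59 of 60 bases with that of PLVAP, an endothelial protein of vesicles, which was lower by 0.98 and just outside the threshold, so both read nearly the same sequence. The LOC100296206 call ended without any pig but CR replicate 1, with an adjusted p of at most 0.179.

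Among the probes higher in CR pigs, only 4 named genes passed, and the gene with the next smallest p-value was LOC100520559, described as notch homolog protein 2-like, which did not pass. It had log2 levels of 8.24, 8.02, 8.04, 7.71 and 8.17 in CR pigs and 6.46 to 7.35 in LW pigs, with a median of 6.67. The breeds did not overlap. The difference was 1.24 ± 0.27 (adjusted p = 0.0721), with 1.34 under HS. With the slide as a block the adjusted p was 0.00728.

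Probes without a gene name made up 15 of the 33, with 8 higher and 7 lower in CR pigs. Beside the TSPAN7 sequence, the largest rise was at a probe of clone AK230483, which the files describe as expressed in alveolar macrophages. Its log2 levels in CR pigs were 13.07, 12.92, 12.77, 13.78 and 10.81. LW pigs ranged from 9.67 through 10.03 to 10.56. CR replicate 5 was far below the other 4 CR pigs and only just above the LW range. The difference was 2.59 ± 0.52 (adjusted p = 0.0303), and the call ended without any of 8 pigs (CR replicates 1 to 4 and LW replicates 1, 2, 3 and 6, with an adjusted p of at most 0.123). A probe named by a Vega transcript record, chosen after its values were seen, read 12.42, 12.35, 12.08 and 12.99 in CR replicates 1 to 4 and 11.31 in replicate 5, the same pig that was low at the clone. LW pigs had 10.3 at the lowest, 10.6 at the median and 10.9 at the highest, below every CR pig. The Vega transcript probe shares a run of 27 bases with a further probe of that clone, A_72_P788198, so the 2 records may not be separate results. It differed by 1.63 ± 0.33 (adjusted p = 0.0346), and this call ended without any of 9 pigs, all but replicate 5 of each breed, with an adjusted p of at most 0.146.

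Of the unnamed probes that were lower in CR pigs, A_72_P027621 had the widest spread. The CR pigs read 5.73, 5.15, 5.59, 9.12 and 8.25, against 9.03 to 9.29 in LW pigs with a median of 9.14. CR replicate 4 lay within the LW range and replicate 5 somewhat below it, while the other 3 were far lower. The log2 difference was −2.39 ± 0.49 in TN conditions (adjusted p = 0.0346) and −0.74 under HS (adjusted p = 0.631). Leaving out any of 9 pigs, all but CR replicates 4 and 5, ended this call (highest adjusted p 0.203). A_72_P008606 differed by −1.31 ± 0.22 (adjusted p = 0.00393), with 5.64, 5.48, 5.61, 5.21 and 5.02 in CR pigs and 6.30 to 7.05 in LW pigs around a median of 6.63. These ranges did not overlap, and only 3 of the 5 CR arrays read this probe well above background. Its difference was −0.89 to −2.63 under other processing. The IgG1b probe given above was the other of the 3 largest falls among unnamed probes.

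The breed difference was then read in the pigs under HS, which are other animals of the same litters. All 33 probes had the same sign under HS, as did 57.4% of all probes, and 27 of the 33 passed there, against 0.392% of all probes. Both contrasts came from 1 fit with a shared spread per probe, so passing under HS is not independent of passing in TN conditions. The breeds did not overlap under HS at 20 of the 33, against 0.911% of all probes. The TSPAN7 probe differed by 2.14, VMO1 by 2.02, KIT by −1.09, OAZ3 by −2.15 and the IgG1b probe by −2.50. The SELENOF probe was well above background in 0 of the 6 LW pigs under HS, as in TN conditions. Those that did not pass under HS were TSPAN6, LOC100296206, A_72_P027621 and 3 other unnamed probes. Of the 7 genes, 6 also passed under HS, with TSPAN6 the exception. No probe passed the test of the interaction between breed and climate in limma, with 700 probes at an unadjusted p under 0.05, so no change of the breed difference with climate was shown for any probe. Among the 33, 3 had such an unadjusted p.

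**Figure D4:**
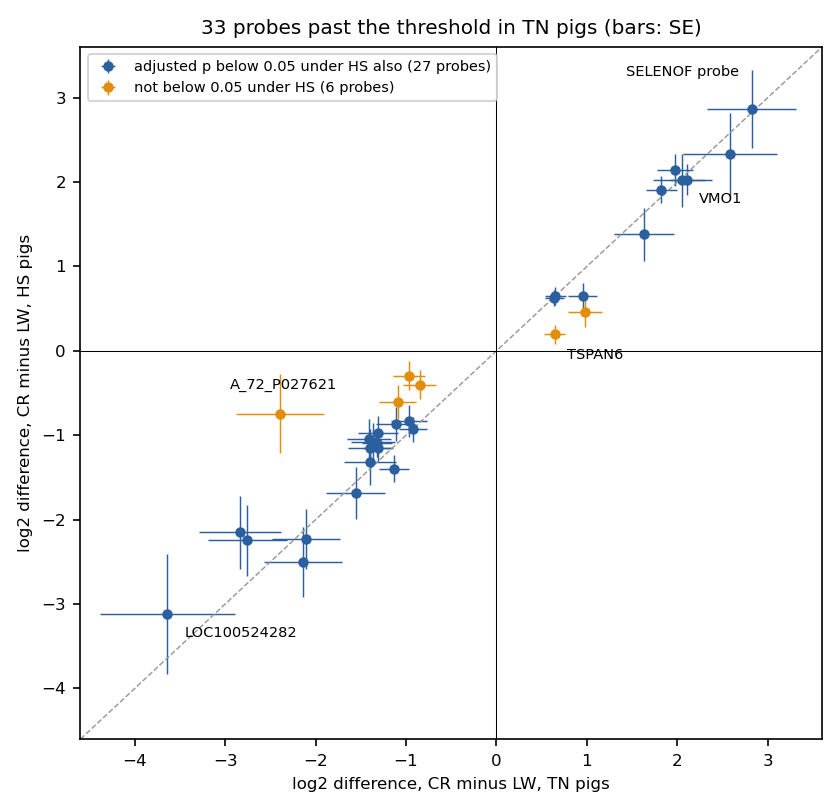
Log2 difference between CR and LW pigs in TN conditions (x axis) and under HS (y axis) for the 33 probes, with bars for ± SE and a dashed line of equality. All 33 points have the same sign on both axes, and the 6 orange points did not pass under HS.

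In F1 pigs in TN conditions, the mean lay between the means of the parent breeds at 32 of the 33 probes. It was nearer to LW at 24 and nearer to CR at 9, as a description with no test. The 33 were chosen by a gap between these same parent means, which makes a mean between them likely. No share over all probes is given, so the count shows no pattern of inheritance. At the TSPAN7 probe the F1 mean was 5.77 ± 0.34 (SD, n = 6), close to the LW mean of 5.73 ± 0.38 (n = 6) and far from the CR mean of 7.70 ± 0.47 (n = 5). At the RGS2 probe with its own sequence it was 11.10 ± 0.48, nearer to the CR mean of 10.73 ± 0.36 than to the LW mean of 12.13 ± 0.35. OAZ3 gave 6.80 ± 1.03 in F1 pigs, between 5.45 ± 0.32 in CR and 8.29 ± 0.48 in LW pigs.

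Beyond those genes, the genes of blood cell types and of common functions were described by 29 lists, with 870 measured genes in all. In 28 of the lists no gene passed, and in the list of polyamine genes OAZ3 passed. The medians of the lists lay between −0.25 and 0.35, against −0.003 for all genes. The genes of a list share pigs and cells, and lists are described by counts and medians, while the mean level of each cell type list was compared between pigs by exact permutation.

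Genes of T cells and of cytotoxic and NK cells had mostly lower values in CR pigs. Of 21 T cell genes measured, 20 had a difference below 0, with a median of −0.22, where 51.2% of all genes were below 0. CD2, an adhesion molecule of T cells, differed by −0.38 ± 0.16, CD8A, a coreceptor of killer T cells, by −0.54 ± 0.23, and CD4, the coreceptor of helper T cells, by −0.28 ± 0.13. For cytotoxic and NK cells, 18 of 24 genes were below 0 and the median was −0.25. NKG7, a granule protein, differed by −0.56 ± 0.22 and S1PR5, which guides NK cells out of tissues, by −0.57 ± 0.26, while TYROBP, an adaptor of NK and myeloid receptors, was at 0.50 ± 0.21. None of these genes passed. As the mean level of the list on each array, cytotoxic and NK genes were at 9.41 ± 0.05 in CR (SD, n = 5) and 9.62 ± 0.19 in LW pigs (n = 6), with an exact permutation p of 0.0498 and an adjusted p of 0.515. T cell genes were at 8.69 ± 0.19 and 8.90 ± 0.16 (exact permutation p = 0.0736, adjusted p = 0.515). Under HS the list medians were −0.18 for T cells and −0.09 for cytotoxic and NK cells. There CD8A (0.17), S1PR5 (0.06) and TYROBP (0.21) were above 0, and CD2 (−0.18), CD4 (−0.17) and NKG7 (−0.11) were below.

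Platelet and B cell genes had mostly higher values in CR pigs. Of 17 platelet genes 14 were above 0, with a median of 0.35, and GNG11 (0.97 ± 0.57), SPARC (0.66 ± 0.43) and PPBP, the platelet basic protein (0.95 ± 0.66), had the smallest p-values. The mean level of platelet genes was 8.41 ± 0.51 in CR and 7.99 ± 0.53 in LW pigs, a difference smaller than the spread within either breed (exact permutation p = 0.221). Of 18 B cell genes 16 were above 0, with a median of 0.26. BLNK, an adaptor of the B cell receptor, differed by 0.34 ± 0.15, FCRLA by 0.39 ± 0.19 and CD40 by 0.35 ± 0.22. None of these genes passed.

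Red cell and myeloid genes are given next. Of 22 erythroid genes, 17 were below 0 and the median was −0.11, with CA1, carbonic anhydrase 1 of red cells, at −1.49 ± 0.61 and AHSP, the chaperone of alpha globin, at −0.49 ± 0.24. The share of the raw signal on 5 globin probes was 0.296% ± 0.043 in CR and 0.294% ± 0.040 in LW pigs (exact permutation p = 0.950). Of 21 neutrophil genes 17 were above 0, with a median of 0.13, CHI3L1 at −0.93 ± 0.46 and ARG1 at 0.76 ± 0.51. Monocyte genes were above 0 in 13 of 21, with a median of 0.11. CX3CR1, a chemokine receptor, had the smallest p-value of that list and was at −0.49 ± 0.29. CD14, the coreceptor for endotoxin, was at 0.45 ± 0.31. Genes of eosinophils and basophils had a median of 0.13 and those of dendritic cells 0.06. Genes of complement and Fc receptors were above 0 in 22 of 26, with a median of 0.15 and VSIG4 at 0.51 ± 0.33.

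**Figure D5:**
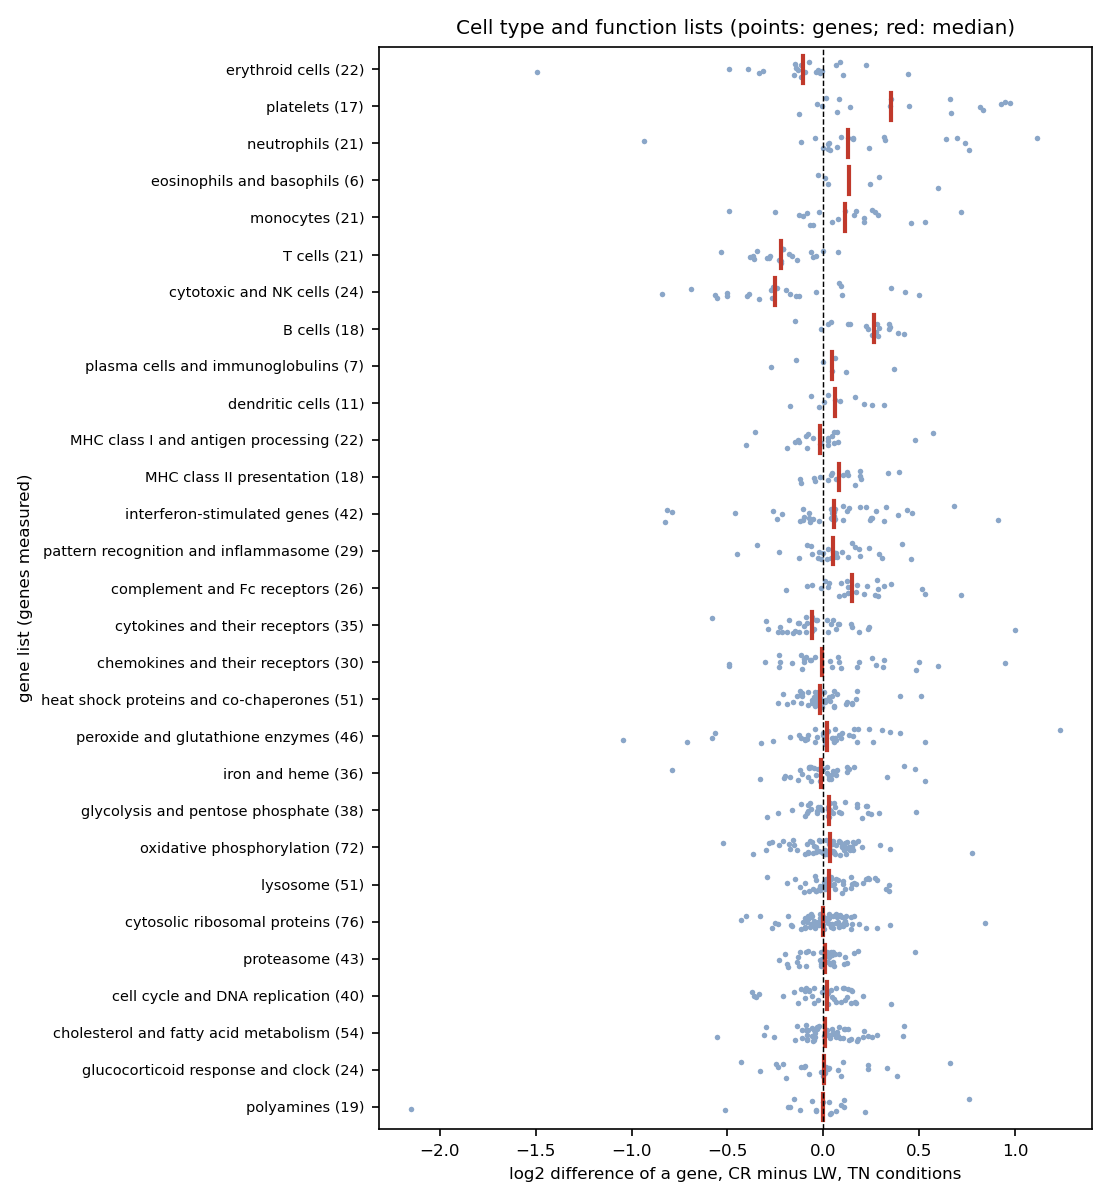
Log2 difference between CR and LW pigs in TN conditions for each measured gene of 29 lists (points), with the median of each list in red and that of all genes as a dashed line. Platelet and B cell medians lie above the line at 0.35 and 0.26, those of T cells and of cytotoxic and NK cells below it at −0.22 and −0.25, and a single polyamine gene, OAZ3, stands far to the left.

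Immune response genes held the gene with the smallest p-value among the lists apart from OAZ3. GBP4, a guanylate-binding protein induced by interferon, was at −0.83 ± 0.20 (adjusted p = 0.163), and its relative GBP2 at −0.79 ± 0.20 (adjusted p = 0.207). IFITM1, an antiviral membrane protein that interferon also induces, was on the other side at 0.91 ± 0.28 (adjusted p = 0.556), and the median of 42 interferon-stimulated genes was 0.05. Among pattern recognition genes, TLR2, a receptor for bacterial lipoproteins, was at −0.45 ± 0.15 and TRAF6, an adaptor of such receptors, at 0.41 ± 0.15. IL12RB1, a chain of the interleukin 12 receptor, was at −0.58 ± 0.22. CCL8, a chemokine, was at 0.50 ± 0.22 in TN conditions and at 0.98 under HS, where it passed (adjusted p = 0.0277). Of the MHC genes, SLA-3 of class I was at −0.40 ± 0.21 and SLA-DOA of class II at 0.39 ± 0.20, and the medians of the 2 lists were −0.02 and 0.08.

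Heat shock and metabolic lists were centred near 0. The 51 heat shock and co-chaperone genes had a median of −0.02, with TRAP1, the mitochondrial HSP90, at 0.40 ± 0.14 and HSP90AA1 at −0.23 ± 0.12. Among 46 enzymes of peroxides and glutathione, GSTK1, a glutathione transferase, was at 1.23 ± 0.39 (adjusted p = 0.567), GPX1, the glutathione peroxidase of red cells, at −0.71 ± 0.25 (adjusted p = 0.826) and PRDX1, a peroxiredoxin, at 0.35 ± 0.14. HMOX1, heme oxygenase 1, was at 0.53 ± 0.22 and ALAD, of heme synthesis, at −0.79 ± 0.40. HSD11B1, which makes cortisol from inactive cortisone, was at 0.66 ± 0.23 (adjusted p = 0.828). Medians were 0.03 for glycolysis, 0.04 for 72 genes of oxidative phosphorylation, 0.03 for 51 lysosomal genes, 0.008 for 43 proteasome genes, 0.02 for the cell cycle and 0.009 for cholesterol and fatty acid metabolism. For oxidative phosphorylation, NDUFV3 at −0.52 ± 0.21 had the smallest p-value. COX5A, a subunit of cytochrome c oxidase, at 0.77 ± 0.32 and LIPA, the lysosomal acid lipase, at 0.32 ± 0.12 were also among the genes with the smallest p-values. None of the 3 passed.

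Slides were the batch that the file headers gave. Over all pigs with the slide as a block, 26 probes passed, of which 23 were among the 33, and over the 11 pigs alone 8 passed, with a single array per breed on 3 of the slides. The block over all pigs ended the calls of ESD (adjusted p = 0.103), FSCN1 (0.204), WWP1 (0.163), LOC100524282 (0.103), LOC100296206 (0.0527), A_72_P027621 (0.144), the probe of clone AK230483 (0.098), the Vega transcript probe (0.103) and 2 other unnamed probes. Within the 4 slides with both breeds, the log2 difference was 1.63 to 2.38 at the TSPAN7 probe, 1.46 to 2.46 at VMO1, −3.03 to −2.47 at OAZ3, −1.80 to −0.77 at KIT, and −5.11 to −1.44 at LOC100524282. In simulated data with these arrays' spread, 28% of 50 probes with a log2 difference of 0.5 were found, 76% at 1, 96% at 1.5 and 98% at 2. In that simulation 157 probes passed, against 33 in the data, which makes the adjusted threshold less strict than here. Pigs were also drawn as independent, without litter or pen, so these shares may be too high for this comparison.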

How the data were processed

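Blood of 35 pigs was measured with 1 one-colour Agilent array per pig. The scanner files hold the deposited intensity of each spot (Feature Extraction 10.10.1.1), not normalized. The authors made the deposited log2 values from the median intensity by quantile normalization and a filter on expressed probes, whose rule is not given in the sources used here. Quantile normalization repeated here on the intensities correlated with those values at 0.99997. Names from the scanner files and a table of pig gene symbols covered 21610 of 39072 probes (55.3%).

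Each probe was fitted with limma 3.58.1 in R 4.3.3 (lmFit and eBayes) to 6 group means over all 35 pigs, with CR minus LW in TN conditions as the contrast and Benjamini-Hochberg adjustment over all 39072 probes (two-sided, threshold 0.05). Genes were fitted as the mean of their probes. The random effects of the study (pen, slaughter, father, mother) could not be fitted without labels, so pigs are treated as independent. Replicate numbers follow accession order and are only names. A probe not well above background in any pig of a breed is given as at least N-fold, against the lowest signal well above background on each array. Array measures were compared by exact permutation tests. Arrays have no depth of counting, and their number limits the precision.

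Named were, among passing probes, 1 probe per gene up to 15 in each direction and the 3 largest unnamed probes in each direction, with genes of smallest p added where fewer than 5 named genes passed, and members of each gene list among the 3 with the smallest p. The comparison, the lists and this rule were chosen with earlier results of these data known. Alternatives were the 11 pigs alone, an additive model, slide blocks, array weights, a trended robust variance, an erythroid covariate, other normalizations and filters, the brightest probe per gene, and leaving out each pig. The fit was tested on simulated data.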

Additional observations from a re-analysis of the deposited data

Results flagged for a closer look

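Within the CR and the LW group, 276 sets of values were searched for a pig whose gap to the nearest other pig was large against the range of its breed, and 26 were found. Dixon's rule is set so that chance gives about 1 in 20 for independent normal values, and these sets include probes of the same sequence and means over the same probes. Among probes past the threshold, LW replicate 5 was high at the probe with the TSPAN7 sequence named by a sequence record (6.25, nearest 5.53). LW replicate 6 was high at A_72_P015431 (7.26, nearest 6.99), and LW replicate 3 was low at A_72_P624945 (5.85, nearest 6.17).

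RGS2 had the most such values. CR replicate 1 was high at all 3 passing RGS2 probes (10.35, 11.37 and 10.24) and in the mean of the RGS2 probes (9.65, nearest 8.93), and LW replicate 1 was low at 2 of the probes (10.30 and 11.47). Both pigs lie on slide 1. LOC100335347 was high in CR replicate 5 (7.38), as probe and as gene. The mean over the KIT probes was high in CR replicate 4 (6.45, nearest 6.13).

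Among list genes, CR replicate 1 was high at IL18 (11.92, nearest 9.72) and low at ENO1 (12.20). CR replicate 2 was low at CD2 (8.48), HSP90AA1 (10.81) and PRDX1 (10.73), and it also had the lowest share of probes well above background of the CR pigs (59.8%, nearest 65.9%). The part of that share in these values was not tested. CR replicate 5 was high at CD40 (11.37), CD1.1 (10.48, nearest 9.16) and GBP2 (9.11). Among LW pigs, replicate 6 was low at CD1.1 (8.50), replicate 4 was high at SLA-DOA (10.36), replicate 3 was high at GBP2 (10.38, nearest 9.41), and replicate 5 was low at ARG1 (11.54) and high at PSMB5 (8.05).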

How the results depend on the processing

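The 33 probes kept their sign in all of 759 values over the alternatives. In 600 of these they still passed and in 159 they did not, and the SELENOF probe, VMO1 and both OAZ3 probes passed under every alternative. Sizes depended on the processing, and scaling of the background-subtracted signal to the 75th percentile gave the larger and normexp the smaller of the differences 5.84 and 2.08 at SELENOF, 3.16 and 1.59 at VMO1, 2.95 and 1.53 at TSPAN7, −4.07 and −2.21 at OAZ3, −3.32 and −1.68 at LOC100335347 and −2.63 and −0.89 at A_72_P008606. That scaling also ended the calls of TSPAN6, ESD, FSCN1, LOC100524282, LOC100296206 and A_72_P027621. The number of passing probes was 421 in the additive model, which assumes the same breed difference in both climates and uses all CR and LW pigs, 110 with array weights, 63 with the erythroid covariate and 8 with slides as a block over the 11 pigs (5 of them among the 33), and it ranged from 23 to 50 when a pig was left out, with 50 without CR replicate 1. The cause of the change was not tested for weights and covariate. For genes the numbers were 119, 20, 19 and 4, and 7 to 14 without a pig (14 without CR replicate 1). The 13 probes that lost their call without 1 pig or more included the passing probes of ESD, FSCN1, WWP1, LOC100296206, LOC100524282 and IgG1b, while those of KIT, RGS2, TSPAN7, TSPAN6 and LOC100335347 kept it without any 1 pig. In the limma fit over the 11 pigs alone, without a slide block, 30 probes passed, of which 21 were among the 33. The 12 that lost their call included LOC100335347 (adjusted p = 0.0658), LOC100524282 (0.103), IgG1b (0.127), ESD (0.136), FSCN1 (0.157) and WWP1 (0.202). The sign of a gene value turned in 6 of 1980 values, none of which passed: in the additive model CX3CR1 (0.056) and PIGR (−0.0099), with slides as a block over the 11 pigs IGHA (0.10), and with the brightest probe per gene SLA-DQB1 (−0.26), VSIG4 (−0.12) and TSPAN7 (−0.018), whose brightest probe is the one that did not differ. The interaction had no passing probe in any setting in which it was counted. These were the main fit, the slide block over all pigs, array weights, scaling to the 75th percentile and leaving out each pig. No paired analysis was possible because replicate numbers follow accession order and do not link animals of different groups. Signal over background limits the dim probes, as 26 of the 33 were well above background on all 11 arrays, and breed cannot be told apart from litter and pen.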

Other observations

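Some of the largest differences did not pass, because pigs of 1 breed differed widely. They were chosen after their values were seen. A further probe of clone AK230483, A_72_P788198, had log2 levels of 11.54, 11.47, 11.09, 12.19 and 5.11 in CR pigs and 4.77 to 5.26 in LW pigs. It shares a run of 27 bases with the Vega transcript probe. The low pig was again CR replicate 5, which lay within the LW range. The fitted difference was 5.25 (adjusted p = 0.0828), and 5.42 under HS, where it passed (adjusted p = 0.0249).

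LOC100519082, an uncharacterized protein in the files, read 9.78 in CR replicate 1 and 14.75, 14.83, 14.32 and 14.42 in the other CR pigs, against 8.77 to 9.44 in LW pigs. It differed by 4.59 (adjusted p = 0.105), and by 4.66 under HS (adjusted p = 0.0316). A probe named by the record AK232467 gave 9.88, 14.78, 14.79, 14.39 and 14.53 in the same order of CR pigs, with the same pig low.

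TNNI1, troponin I of slow muscle, was read by 2 probes in these pigs, with 5.37, 6.38, 10.66, 10.50 and 10.89 in CR pigs at one of them and 11.36 to 12.15 in LW pigs. CR replicates 1 and 2 were far below the other 3 at both probes. The differences were −2.93 and −2.74 and did not pass (adjusted p = 0.781 and 0.749). At A_72_P419064, the LW pigs separated instead, with 8.29 and 8.26 in replicates 2 and 5 and 5.23, 5.63, 5.28 and 5.36 in the others, while CR pigs read 8.83 to 9.20. It differed by 2.62 (adjusted p = 0.107).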
